A study of Mus musculus with 18 samples.

Results

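The transcription factors that set the identity of natural killer (NK) cells and of group 1 innate lymphoid cells (ILC1) were followed through 4 lymphocyte populations of the mouse liver. The 10 genes were taken by symbol from the 54309 genes of the lymphocyte count table: *Eomes*, *Tbx21*, *Zeb2*, *Zfp683*, *Prdm1*, *Tcf7*, *Bcl11b*, *Ikzf2*, *Ikzf3* and *Runx3*. All 10 were among the 13594 genes that passed the filter on low counts, and each is given below in every library. The choice used no measured value of a gene, but it was made with earlier results of these data known.

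NK cells and ILC1 both kill target cells and make interferon-γ, and both depend on the T-box factor T-bet, the product of *Tbx21*. They are told apart by Eomes, a related T-box factor that conventional NK cells need and most liver ILC1 lack, and by Hobit, the product of *Zfp683*, on which liver ILC1 depend. Late NK maturation is driven by Zeb2 downstream of T-bet, while TCF-1, the product of *Tcf7*, marks earlier NK stages and memory-like lymphocytes.

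Female C57BL6/J mice of 8 to 10 weeks received MC38 cells, a mouse colon adenocarcinoma line, by injection into the spleen, and cells were sorted from pools of 6 to 8 livers or metastases 20 days later. All sorted cells were live, lineage negative, CD45+ and NKp46+. From metastasis-free liver (MFL) came NK cells, gated as CD49a- and CD49b+, and ILC1, gated as CD49a+ and CD49b-. From liver metastasis (LM) came CD49a- NK cells, with the gate of MFL NK cells, and CD49a+ NK cells, positive for both integrins. The CD49a- cells of LM are called LM NK cells here and the CD49a+ cells of LM are called CD49a+ NK cells, and ILC1 always stands for those of MFL. Each population had 3 libraries. The titles of the CD49a+ NK libraries call them ILC1, and they were assigned by their sorted phenotype. The labels tie no library to a culture or animal beyond its pool, so p-values measure the spread between these libraries. There was no sample of uninjected mice among these libraries, and no allele or drug separated the groups.

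Total counts per library lay between 8795721 and 14386834, and 3.68% to 15.2% of them fell on mitochondrial, ribosomal RNA and small RNA genes. Metastases were digested with Liberase TL and DNase I, whereas liver parenchyma was smashed and filtered, so that site and dissociation cannot be told apart. The sort genes followed the gates in part: *Itga1* (CD49a) had 663 ± 17.1 CPM (counts scaled to a common library size with TMM and given as CPM; SD, n = 3) in ILC1, 134 ± 26.5 in CD49a+ NK cells and 11.5 ± 7.46 in MFL NK cells, and *Itga2* (CD49b) had 37.0 ± 15.3 CPM in ILC1 against 346 ± 41.1 in MFL NK cells. CD49a+ NK cells, also gated as CD49b+, had 129 ± 79.9 CPM of *Itga2*. Their libraries (65.7 to 219 CPM) were below those of MFL NK (299 to 376) and LM NK cells (241 to 333). The 5 ILC1 markers summed to 1495 to 1549 CPM in ILC1, 185 to 279 in CD49a+ NK cells and 25.7 to 68.5 in the CD49a- NK populations. In bulk libraries, fewer cells that express a gene and less RNA of it per cell cannot be told apart.

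**Figure D1:**
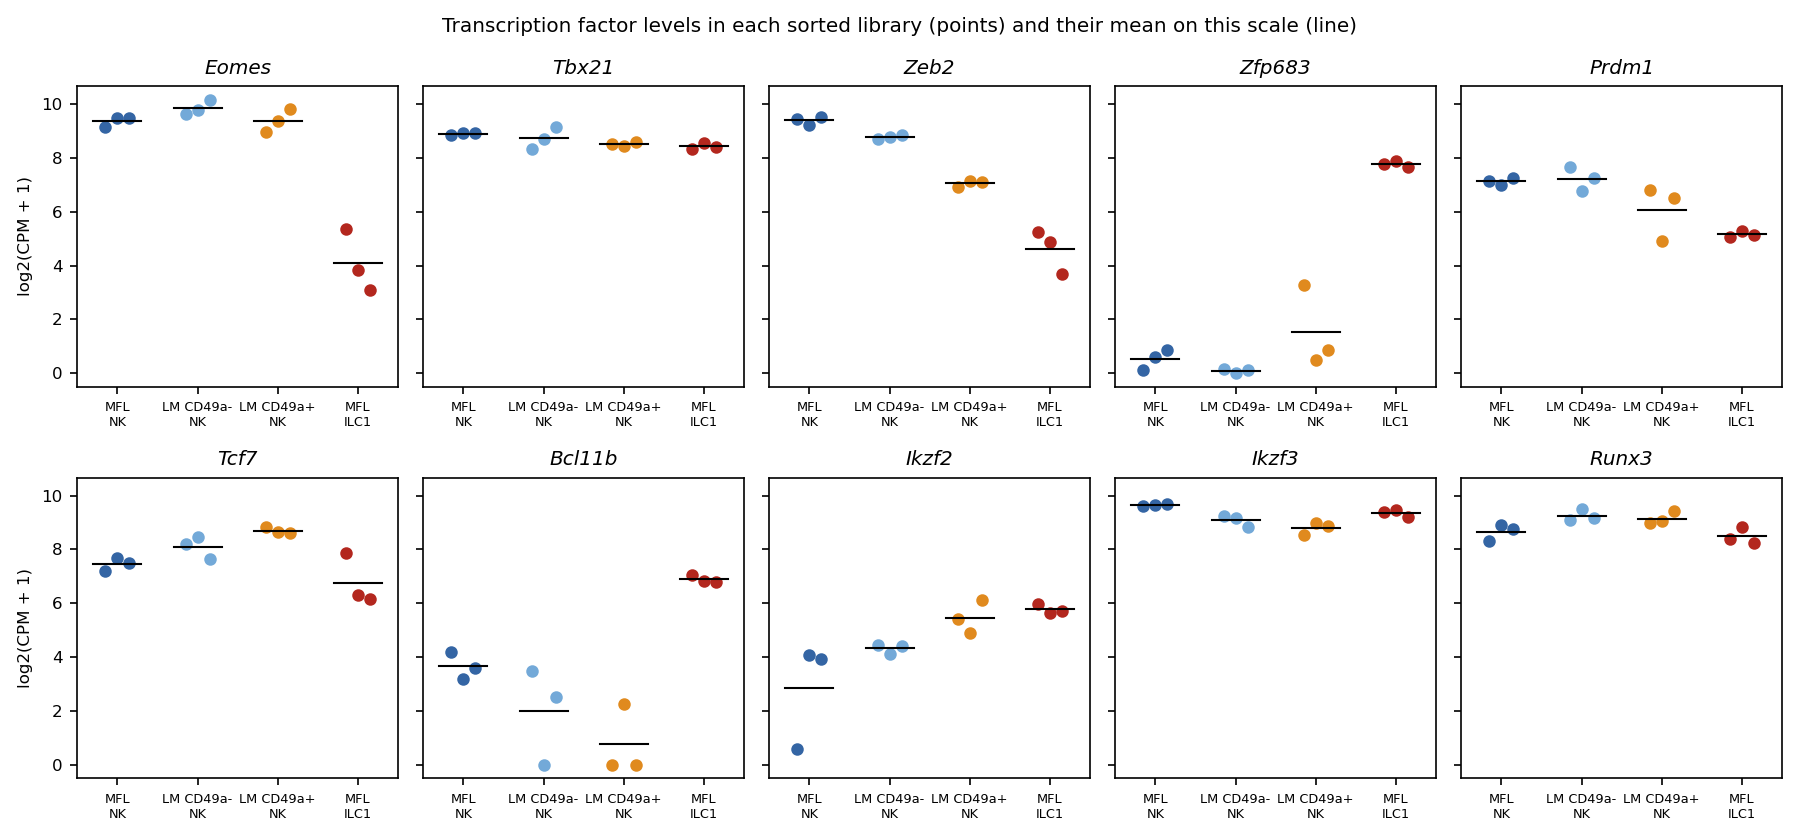
Level of each factor in the 12 libraries, as log2(CPM + 1), with 1 point per library and a line at the mean of the 3 libraries of a population. *Zeb2* steps down from MFL NK cells (mean 673 CPM) through both LM populations to ILC1 (25.8 CPM), and *Eomes* lies far lower in ILC1 than in the 3 NK populations while *Zfp683* lies far higher.

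*Eomes* (ENSMUSG00000032446, GRCm39 chromosome 9, 118307280 to 118315200, plus strand) separated the NK populations from ILC1. It had 563, 721 and 721 CPM in the MFL NK libraries, 800.2, 887 and 1147 in LM NK cells, 499.9, 658 and 902 in CD49a+ NK cells, and 40.2, 13.2 and 7.58 in ILC1. Every NK library was thus above every ILC1 library, and the CD49a+ NK libraries overlapped with those of both other NK populations. The CD49a+ NK library at 499.9 CPM was below all other NK libraries. In ILC1 it was 32.8-fold lower than in MFL NK cells, a log2 fold change of -5.04 (SE 0.49; edgeR quasi-likelihood test, Benjamini-Hochberg adjusted p = 6.63e-06). CD49a+ NK cells had 33.7-fold more *Eomes* than ILC1 (log2 fold change 5.08, SE 0.49, adjusted p = 1.29e-05). Without ILC1 replicate 1, the library at 40.2 CPM, these values were -6.00 and 6.04. Against MFL NK cells their log2 difference was 0.04, with a 95% interval from -0.82 to 0.90, and against LM NK cells it was -0.46, from -1.32 to 0.40. Neither difference passed the test.

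*Tbx21* (ENSMUSG00000001444, chromosome 11, 96988897 to 97006158, minus strand), the T-box factor common to both lineages, passed the test in none of the 6 comparisons. Its libraries gave 456, 491 and 485 CPM in MFL NK cells, 320.1, 417 and 573 in LM NK cells, 366, 348 and 383 in CD49a+ NK cells, and 323, 379 and 342 in ILC1. The ILC1 libraries did lie below those of MFL NK cells without overlap, by a log2 difference of -0.46 (95% interval -0.92 to 0.01, adjusted p = 0.610), and a limma-voom fit with library weights called that difference (-0.43, adjusted p = 0.00241).

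*Zeb2* (ENSMUSG00000026872, chromosome 2, 44873644 to 45007464, minus strand), a zinc finger repressor needed for late NK maturation, stepped down through the populations. It had 689, 602 and 728 CPM in MFL NK cells, 415, 433 and 458 in LM NK cells, 119.9, 139 and 137 in CD49a+ NK cells, and 37.1, 28.5 and 11.7 in ILC1. No library of one population overlapped with those of the next. ILC1 had 26.1-fold less than MFL NK cells (log2 fold change -4.70, SE 0.34, adjusted p = 1.93e-07), and CD49a+ NK cells had 5.10-fold less than MFL NK cells (-2.35, SE 0.31, adjusted p = 0.00113) and 5.11-fold more than ILC1 (2.35, SE 0.31, adjusted p = 0.00024). On the log2 scale the CD49a+ libraries stood 46.9%, 47.2% and 51.2% of the way from MFL NK cells to ILC1. Within LM, *Zeb2* was 3.30-fold lower in CD49a+ than in CD49a- NK cells (-1.72, SE 0.30, adjusted p = 0.0402). That call was lost without CD49a+ replicate 1 (adjusted p = 0.168) and without replicate 2 (0.104), and with limma-voom (0.128), while the log2 difference stayed between -1.76 and -1.67 over the fits that left out 1 library. The first step, from MFL NK to LM NK cells, was -0.63 (95% interval -1.24 to -0.01) and did not pass the test (adjusted p = 0.742). The antisense gene *Zeb2os* lies on the other strand, and the library kit keeps the strand.

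RefSeq promoter sequences, from 250 bases before to 50 after a start, were held for 7 of the 10 factors in the table used (build GRCm38.p6), and *Zfp683*, *Ikzf2* and *Ikzf3* had no entry. Each of the 12 sequences was found once near its gene in GRCm39, whose coordinates are given. Those of *Eomes* and *Zeb2*, both called lower in ILC1, are shown with those of *Tbx21*, which did not pass the test there, and *Prdm1*, the third factor called lower; all are 5′ to 3′ on the strand of the gene. Capitals mark the E-box CACCTG, the kind of site that Zeb factors can bind, which reads CAGGTG on the opposite strand.
*Eomes*, chr9:118307007-118307306, plus strand: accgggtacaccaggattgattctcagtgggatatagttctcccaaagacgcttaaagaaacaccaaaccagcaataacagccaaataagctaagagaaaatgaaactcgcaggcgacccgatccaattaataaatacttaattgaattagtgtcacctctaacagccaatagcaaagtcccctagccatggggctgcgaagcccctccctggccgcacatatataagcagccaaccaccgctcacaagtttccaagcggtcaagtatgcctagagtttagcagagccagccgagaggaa
*Zeb2*, chr2:45007405-45007704, minus strand: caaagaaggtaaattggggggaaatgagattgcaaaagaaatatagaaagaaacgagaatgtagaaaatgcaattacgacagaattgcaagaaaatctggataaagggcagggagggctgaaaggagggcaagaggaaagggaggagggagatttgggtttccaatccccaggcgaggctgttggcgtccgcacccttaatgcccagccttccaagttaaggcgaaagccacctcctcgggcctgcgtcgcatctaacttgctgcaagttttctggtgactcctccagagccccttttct
*Tbx21*, chr11:97006108-97006407, minus strand: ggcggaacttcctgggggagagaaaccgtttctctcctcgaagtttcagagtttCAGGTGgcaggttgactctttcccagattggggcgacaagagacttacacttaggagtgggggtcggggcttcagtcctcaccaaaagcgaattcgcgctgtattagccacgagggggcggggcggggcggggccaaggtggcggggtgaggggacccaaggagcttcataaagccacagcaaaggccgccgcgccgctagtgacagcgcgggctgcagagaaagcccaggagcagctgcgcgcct
*Prdm1*, chr10:44334695-44334994, minus strand: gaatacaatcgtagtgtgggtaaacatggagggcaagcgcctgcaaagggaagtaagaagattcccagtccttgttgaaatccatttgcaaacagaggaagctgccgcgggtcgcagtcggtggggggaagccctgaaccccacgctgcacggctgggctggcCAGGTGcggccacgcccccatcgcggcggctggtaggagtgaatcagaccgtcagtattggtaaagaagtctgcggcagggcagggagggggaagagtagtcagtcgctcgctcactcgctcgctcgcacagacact
The *Zeb2* sequence is the most upstream of 4 starts in the table. On both strands, the E-box was held by 4 of the 12 promoters of the factors (1 each of *Tbx21*, *Prdm1*, *Tcf7* and *Runx3*) and by 20.2% of 32851 promoters of the same length. The RUNX site TGTGGT was held by 1 of the 12, at *Runx3* itself, against 16.8% of all promoters, and the T-box motif GGTGTGA, whose GGTG can overlap with the E-box on the opposite strand, by 0 of 12 against 3.98%. These are matches of letters, and no binding was measured here.

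*Zfp683* (ENSMUSG00000049410, chromosome 4, 133781149 to 133786327, plus strand), which encodes Hobit, a repressor that holds lymphocytes in tissue, was close to absent outside ILC1. Its counts were 1, 7 and 11 in the MFL NK libraries, 1, 0 and 1 in LM NK cells, 91, 5 and 8 in CD49a+ NK cells, and 2555, 3223 and 2153 in ILC1, where they made 217, 236 and 204 CPM. The 7931 counts of ILC1 against 19 of MFL NK cells, set against library size, gave a ratio of 457 (95% interval 293 to 760, for counting error only), with a fitted log2 fold change of 8.82 (SE 1.03, adjusted p = 4.44e-05; 9.43 without MFL NK replicate 3). CD49a+ NK cells had 66.0-fold less than ILC1 (-6.04, SE 0.89, adjusted p = 0.000779). Against LM NK cells they held 104 counts to 2, a ratio of 48.2 (95% interval 13.0 to 403, counting error only), yet 91 of those counts came from 1 library, and the difference did not pass the test (adjusted p = 0.136; 0.0172 with DESeq2). That library, CD49a+ replicate 1, was at 8.81 CPM, and its ILC1 markers summed to 246 CPM against 279 and 185 in replicates 2 and 3. In CD49a+ NK cells *Itga1*, the gene of the gate, had the highest mean of these markers (134 CPM), so the sum follows the sort in large part. Whether that library held ILC1 was not tested. Without CD49a+ replicate 1 the log2 difference from LM NK cells was 2.95 in place of 5.45, and that from ILC1 was -8.52 in place of -6.04.

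*Prdm1* (ENSMUSG00000038151, chromosome 10, 44313171 to 44404497, minus strand), which encodes Blimp-1, a repressor related to Hobit, was lower in ILC1 than in MFL NK cells. MFL NK libraries had 142, 126 and 153 CPM, LM NK cells 201, 108 and 152, CD49a+ NK cells 110.4, 28.8 and 91.0, and ILC1 32.6, 38.1 and 33.8. All ILC1 libraries were below all MFL NK libraries, by 4.02-fold (log2 fold change -2.01, SE 0.39, adjusted p = 0.00559). The CD49a+ NK libraries ran from below the ILC1 libraries into the range of LM NK cells, and they differed from no other population past the threshold (adjusted p = 0.375 against LM NK cells, 0.467 against MFL NK cells and 0.161 against ILC1). Replicate 2, at 28.8 CPM, set that spread: without it the log2 difference from ILC1 was 1.53, in place of 1.14, with an adjusted p of 0.00879.

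*Tcf7* (ENSMUSG00000000782, chromosome 11, 52143107 to 52174619, minus strand) was highest in CD49a+ NK cells. The libraries had 453, 397 and 386 CPM there, 293, 349.7 and 199 in LM NK cells, 146, 203 and 179 in MFL NK cells, and 229.5, 78.9 and 69.6 in ILC1. CD49a+ NK libraries overlapped with none of the other 3 populations. They exceeded ILC1 by 3.27-fold (log2 fold change 1.71, SE 0.37, adjusted p = 0.0152; 2.47 without ILC1 replicate 1). Their differences from MFL NK cells (1.23, SE 0.36, adjusted p = 0.238) and from LM NK cells (0.55, SE 0.36, adjusted p = 0.576) did not pass the test. The former was called by DESeq2 (adjusted p = 0.0556) and limma-voom (1.10, adjusted p = 0.0118). ILC1 replicate 1 stood apart at 229.5 CPM, and it was also the highest ILC1 library for *Eomes* (40.2 CPM) and *Zeb2* (37.1 CPM). Without it, *Tcf7* was called lower in ILC1 than in MFL NK cells (-1.25, adjusted p = 0.0264, against -0.48 and 1 with all libraries), and higher in CD49a+ than in MFL NK cells (1.22, adjusted p = 0.0349). With all libraries kept, limma-voom called *Tcf7* lower in ILC1 than in MFL NK cells (-1.26, adjusted p = 2.28e-05), where it called 19.5% of all genes.

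*Bcl11b* (ENSMUSG00000048251, chromosome 12, 107876656 to 107970417, minus strand), a zinc finger factor best known for T cell commitment, had its highest level in ILC1. It had 1568, 1540 and 1152 counts in ILC1, 210, 110 and 152 in MFL NK cells, 90, 0 and 60 in LM NK cells, and 0, 48 and 0 in CD49a+ NK cells. CD49a+ NK cells had 91.0-fold less than ILC1 on the fitted scale (log2 fold change -6.51, SE 1.45, adjusted p = 0.0194). All 48 of their counts came from replicate 2, so that this fold rests on 1 library. ILC1 lay 3.28 log2 units above MFL NK cells with no overlap (133, 113 and 109 CPM against 17.1, 8.11 and 11.2), and this did not pass the test (SE 1.23, adjusted p = 0.297). DESeq2 gave no adjusted p for CD49a+ NK cells against ILC1, and limma-voom called the difference between ILC1 and MFL NK cells (adjusted p = 5.34e-08). Between the LM populations, with 48 counts in CD49a+ NK cells against 150, the difference did not pass the test (adjusted p = 0.569). The 10 T cell markers summed to 621 to 1035 CPM in ILC1 and to 95.9 to 258 in the NK libraries. In ILC1, *Cd3g*, *Trbc1* and *Trbc2* made up most of that sum (means 472, 231 and 101 CPM). *Trac*, *Cd8a*, *Cd4* and *Cd3d* had means of 5.50, 4.87, 3.29 and 2.27 CPM there, while *Cd3e*, *Cd5* and *Cd8b1* were at 0.122, 0.171 and 0.594 CPM. In CD49a+ NK cells, *Cd4*, *Cd8a*, *Cd8b1* and *Cd5* were at 0 in all libraries and *Trac* had a mean of 0.0782 CPM. *Trbc1*, *Trbc2*, *Cd3g*, *Cd3d* and *Cd3e* had means of 166, 40.9, 17.1, 6.47 and 1.16 CPM there, with *Cd3d* from 0 to 16.4 CPM. The part of T cell transcripts in the *Bcl11b* difference was not tested.

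*Ikzf2*, which encodes Helios, was low in MFL NK cells and high in the 2 CD49a+ populations. It had 0.490, 15.9 and 14.1 CPM in MFL NK cells, 20.7, 16.2 and 20.5 in LM NK cells, 41.2, 28.4 and 67.9 in CD49a+ NK cells, and 62.1, 48.2 and 51.9 in ILC1. Neither CD49a+ population overlapped with either CD49a- population. No difference passed the test, with a log2 fold change of 2.41 for ILC1 against MFL NK cells (SE 0.77, adjusted p = 0.158) and of 2.17 for CD49a+ against MFL NK cells (SE 0.76, adjusted p = 0.371). MFL NK replicate 1 held 6 counts against 216 and 192 in the other libraries. DESeq2 (adjusted p = 0.0304) and limma-voom (0.000863) called the first of these differences.

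*Ikzf3*, which encodes Aiolos, a factor of late NK maturation, had its highest level in MFL NK cells. It had 780.1, 806 and 815 CPM in MFL NK cells, 607, 578 and 459 in LM NK cells, 367, 506 and 465 in CD49a+ NK cells, and 672, 697 and 588 in ILC1. Both LM populations lay below MFL NK cells without overlap. The difference of CD49a+ NK cells just missed the threshold (-0.84, SE 0.21, adjusted p = 0.104), and it was called by DESeq2 (adjusted p = 0.00545) and limma-voom (0.00964). For LM NK cells it was -0.55 (SE 0.20, adjusted p = 0.722).

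*Runx3*, a partner of the T-box factors in both lineages, was at 314, 479.5 and 434 CPM in MFL NK cells and 338, 451 and 300.0 in ILC1. It reached 545, 716 and 581 CPM in LM NK cells and 507, 525 and 684 in CD49a+ NK cells, so that all 6 LM libraries were above all 6 MFL libraries. This split by site was noticed after the values were seen and was not tested as such. No pairwise difference passed the test, with 0.58 for LM NK cells (95% interval 0.09 to 1.08, adjusted p = 0.723) and 0.48 for CD49a+ NK cells (-0.01 to 0.98, adjusted p = 0.531), each against MFL NK cells. Site and dissociation cannot be told apart here either.

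Between ILC1 and MFL NK cells, 4 of the 10 factors were called: *Zfp683* higher, and *Eomes*, *Zeb2* and *Prdm1* lower. Of all genes tested, 1.38% were called higher and 1.68% lower. The median absolute log2 fold change was 2.21 over the factors and 0.43 over all genes, and 6 of the 10 had an unadjusted p under 0.05, as did 8.37% of all genes. DESeq2 called 5, where it called 5.12% of all genes, and limma-voom called 9, where it called 19.5%.

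CD49a+ NK cells differed from ILC1 in 5 factors, with *Eomes*, *Zeb2* and *Tcf7* higher and *Zfp683* and *Bcl11b* lower, where 2.29% of all genes were called higher and 1.29% lower. The median absolute log2 fold change was 1.42 over the factors and 0.62 over all genes. *Tbx21* (0.07, 95% interval -0.39 to 0.53) and *Ikzf2* (-0.24, -1.78 to 1.30) had the smallest differences.

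Against MFL NK cells, CD49a+ NK cells had 1 factor called, *Zeb2*, which was lower, where 0.427% of all genes were called higher and 0.221% lower. An unadjusted p under 0.05 was reached by 7 factors and 9.74% of all genes. The number called was 4 without CD49a+ replicate 2 (1.13% of all genes), 3 with DESeq2 (2.86%) and 3 with limma-voom (2.26%). The comparison shares the MFL NK libraries with that of ILC1, so that their values are not independent.

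Within LM, *Zeb2* was again the 1 factor called, lower in CD49a+ NK cells, where 0.0662% of all genes were called higher and 0.0736% lower, 9 and 10 genes. An unadjusted p under 0.05 was reached by 3 factors and 11.6% of all genes. The number called was 0 with limma-voom, which called 0 of all genes, and 0 without CD49a+ replicate 1 (0.0345% of all genes). It was 2 with DESeq2, which added *Zfp683* and called 4.08% of all genes.

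Between LM and MFL NK cells, edgeR, DESeq2 and limma-voom each called 0 of the 10 factors, where edgeR called 0.0662% of all genes higher and 0.00736% lower, DESeq2 called 1.26% and limma-voom called 0.765%. The 3 factors with an unadjusted p under 0.05, a limit that 6.72% of all genes met, were *Zeb2* (-0.63), *Ikzf3* (-0.55) and *Runx3* (0.58).

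The difference that CD49a marked was not the same at both sites. Subtracting the MFL difference (ILC1 minus NK cells) from the LM difference (CD49a+ minus CD49a- NK cells) left 4.58 log2 units for *Eomes* (SE 0.61, adjusted p = 0.00105) and 2.98 for *Zeb2* (SE 0.42, adjusted p = 0.00191). These were 2 of the 10 factors, where 0.625% of all genes were called in the positive and 0.405% in the negative direction. For *Bcl11b* the value was -5.21 (95% interval -8.84 to -1.57, adjusted p = 0.339), and for *Tbx21* it was 0.20 (-0.45 to 0.85). The CD49a+ cells of MFL lack CD49b whereas those of LM carry it, so that this contrast holds the gate as well as the site.

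**Figure D2:**
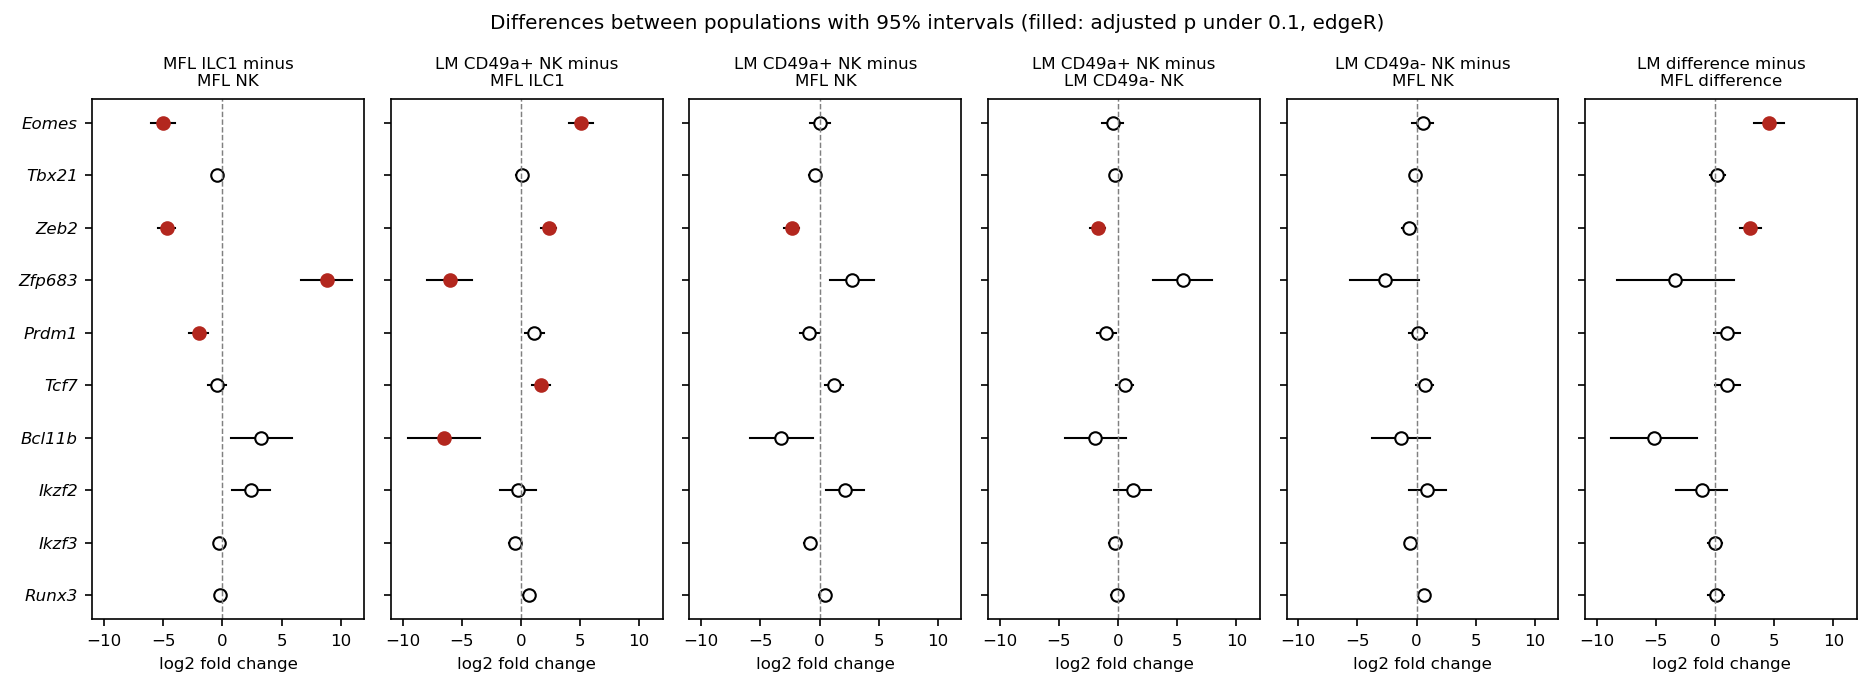
Log2 fold change of each factor in the 6 comparisons, with 95% intervals as horizontal lines, some of them hidden by the points. Filled points passed an adjusted p under 0.1 by edgeR. *Zeb2* is filled in 5 of the 6 panels and *Tbx21* in none.

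Within a library, the ratio of related factors does not depend on scaling where counts are well above the pseudocount of 1. It is given as log2 of counts plus 1, per kilobase of the canonical transcript of each gene. On that scale, levels of 2 genes can be compared. *Eomes* and *Tbx21* were close to even in MFL NK cells (-0.27, -0.02 and 0.0014), *Eomes* was above in all 3 LM NK libraries (mean 0.57) and in 2 of 3 CD49a+ NK libraries (mean 0.30), and it was below *Tbx21* in the 3 ILC1 libraries (-3.57, -5.41 and -6.05). *Zfp683* exceeded *Prdm1* in the ILC1 libraries by 4.40 to 4.54 log2 units and was below it in every NK library, with means of -6.50, -8.08 and -3.60 in MFL, LM and CD49a+ NK cells. Its counts were 1, 7 and 11 in MFL NK cells and 1, 0 and 1 in LM NK cells. The pseudocount thus weighs on these 2 means, above all in LM NK cells, and their size is not well measured. The *Ikzf2* to *Ikzf3* ratio had means of -8.67, -6.19, -4.72 and -4.96 in MFL, LM and CD49a+ NK cells and ILC1. In MFL NK cells, replicate 1, with 6 counts of *Ikzf2*, was at -11.78 against -7.02 and -7.21 in replicates 2 and 3, and it pulled that mean down. CD49a+ NK cells and ILC1 differed in that ratio by 0.23 (two-sided exact permutation p = 0.6). Of the 15 comparisons of ratios, those without overlap reached an exact permutation p = 0.1, the smallest that 3 against 3 libraries allow (0.125 after adjustment over the 15).

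**Figure D3:**
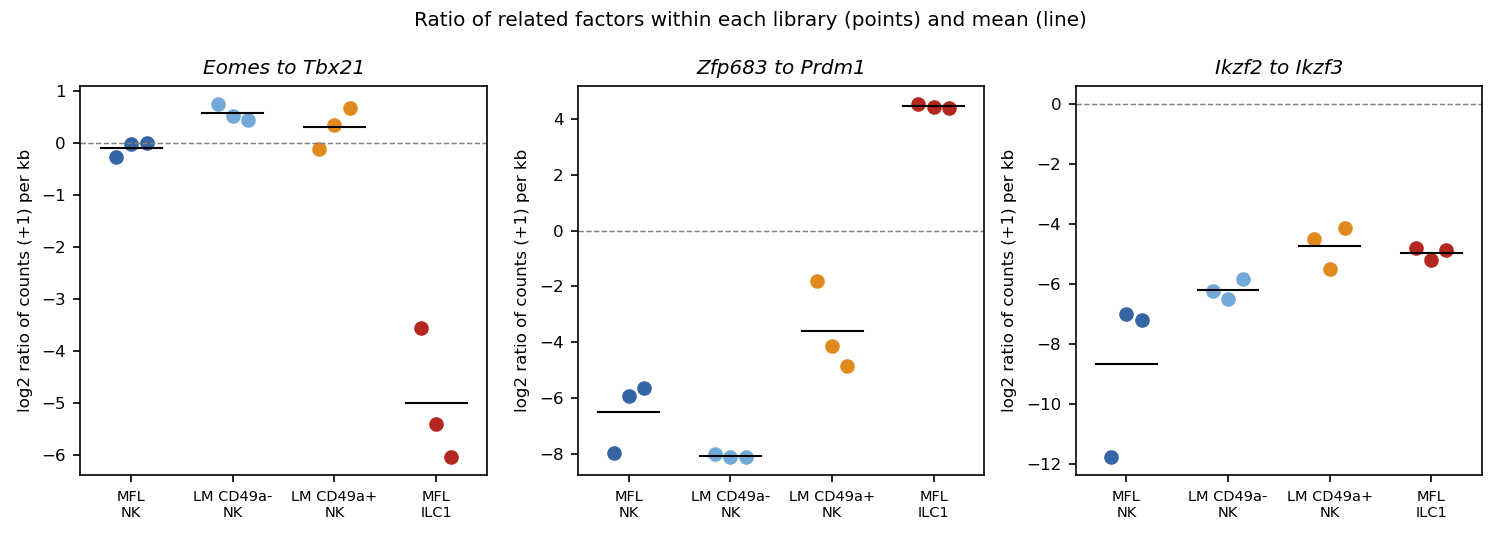
Log2 ratio of counts (plus 1) per kilobase of related factors in each library (points) with the mean of 3 libraries (line). *Eomes* to *Tbx21* lies near 0 or above in the NK libraries and at -3.57 or below in ILC1, *Zfp683* to *Prdm1* is above 0 in ILC1 alone of the 4 populations, and *Ikzf2* to *Ikzf3* is below 0 throughout.

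Per kilobase of the canonical transcript, a scale on which genes can be set beside each other, the factors with the highest means changed between populations. MFL NK cells had most *Ikzf3* (219 CPM per kb), then *Tbx21* (192) and *Eomes* (181), whose libraries overlapped (183 to 197 and 152 to 195). In LM and CD49a+ NK cells *Eomes* came first, with means of 256 and 186 CPM per kb. Its LM NK libraries (217 to 311) overlapped with those of *Tbx21* (129 to 230). In CD49a+ NK cells its libraries (135 to 244) overlapped with those of *Runx3* (138 to 187). *Ikzf3* led in ILC1 (178 CPM per kb, libraries 161 to 191), followed by *Zfp683* (147, libraries 137 to 158) and *Tbx21* (139.8, libraries 129.7 to 152), and the last pair overlapped. *Eomes* was at 5.51 and *Zeb2* at 4.27 CPM per kb there. Genes with several transcripts, such as *Zeb2*, may differ from the canonical length.

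Genes linked to these factors were read from lists written by hand, with earlier results of these data known, and described by counts. For all lists, the shares of all genes called higher and lower are these. They were 1.38% and 1.68% in ILC1 against MFL NK cells, and 2.29% and 1.29% in CD49a+ NK cells against ILC1. CD49a+ NK cells had 0.427% and 0.221% against MFL NK cells, and 0.0662% and 0.0736% against LM NK cells. Of 12 NK maturation genes linked to T-bet and Zeb2, 10 were lower and 0 higher in ILC1 than in MFL NK cells (median log2 fold change -4.28, against 0.01 over all genes). Among the largest were *Cma1*, a mast cell-type protease (137 ± 47.6 CPM in MFL NK cells and at most 0.0947 in an ILC1 library) and *S1pr1* and *S1pr5*, receptors that guide exit from tissue. In CD49a+ NK cells, *Cma1* (14.6 ± 4.19 CPM) and *Itgam* (CD11b; 253 ± 101 CPM) were lower than in MFL NK cells (137 and 936 CPM; adjusted p = 0.0013 and 0.0052) and than in LM NK cells (90.0 and 833 CPM; adjusted p = 0.027 and 0.040), 2 of 12 in each case. The other 10 did not pass, among them *S1pr5*, at 250, 108 and 39.2 CPM in MFL, LM and CD49a+ NK cells. Against ILC1, CD49a+ NK cells had 8 of the 12 higher and 1 lower, *Gzmb*.

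Of 7 genes linked to Eomes, 6 were lower in ILC1 than in MFL NK cells (median log2 fold change -3.50) and 6 higher in CD49a+ NK cells than in ILC1 (median 3.24, against -0.07 over all genes). Among the 6 in each case was *Itga2* (-3.23 and 1.80), the gene of CD49b, by which ILC1 were gated apart from NK cells. The 6 also include the Ly49 receptor *Klra8*, with 453 ± 43.3 CPM in MFL NK cells, 388 ± 124 in LM NK cells, 169 ± 30.3 in CD49a+ NK cells and 11.4 ± 4.44 in ILC1. *Klra8* was the 1 gene of the list called between CD49a+ and MFL NK cells (adjusted p = 0.032). The *Klra* genes are near-identical neighbors, and reads may have been split between them. Among 4 genes that Hobit and Blimp-1 are known to repress, *S1pr1* and *Klf2* were lower in ILC1 than in MFL NK cells (median of the 4, -4.45, against 0.01 over all genes). That median rests in part on *Ccr7* (-5.47, SE 2.81), which was near the floor, with means of 0.466 CPM in MFL NK cells and 0 in ILC1. *Tcf7* was at -0.48, and neither *Ccr7* nor *Tcf7* passed the test. *Klf2*, a factor that drives exit from tissue, had 1086 ± 192 CPM in MFL NK cells, 895 ± 508 in LM NK cells, 387 ± 126 in CD49a+ NK cells and 101 ± 34.3 in ILC1.

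Of 10 genes linked to TCF-1, 3 were lower, *Myb* and *Lef1* among them, and 2 higher (*Il7r*, *Xcl1*) in ILC1 than in MFL NK cells (median log2 fold change -0.15), and 1, *Xcl1*, was higher in CD49a+ than in MFL NK cells (109 ± 76.6 against 19.2 ± 5.95 CPM, adjusted p = 0.021). *Myb*, a factor of progenitors and cycling cells, had 197 ± 111 CPM in CD49a+ NK cells and at most 1.32 CPM in an ILC1 library. *Lef1*, the relative of *Tcf7*, had 120 ± 4.49, 140.4 ± 32.9, 113 ± 17.7 and 21.2 ± 1.71 CPM in MFL NK, LM NK, CD49a+ NK cells and ILC1. It was the 1 gene called between the MFL populations among the 7 tested relatives and partners (9 listed), and it was called higher with *Runx2* in CD49a+ NK cells against ILC1.

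Of 12 ILC1 genes, 9 were higher in ILC1 than in MFL NK cells (median log2 fold change 6.10), led by *Cxcr6*, *Cd200r1*, *Tmem176b* and *Gzmc*. CD49a+ NK cells had 3 of them higher than LM NK cells (median 2.31, against 0.01 over all genes): *Inpp4b* (82.4 ± 23.8 against 1.67 ± 1.18 CPM), *Gzmc* (73.6 ± 58.1 against 4.93 ± 4.57) and *Itga1*, the gene of the sort marker. Against MFL NK cells *Tnfsf10* (TRAIL) was called as well, making 4. Against ILC1, 6 of the 12 were lower, *Cxcr6* among them (3.21 ± 2.88 against 153 ± 28.2 CPM).

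Among 23 tested regulators of innate lymphoid cells (25 listed), 4 were higher (*Ahr*, *Maf*, *Tox*, *Foxo3*) and 3 lower (*Myb*, *Klf2*, *Irf8*) in ILC1 than in MFL NK cells (median log2 fold change -0.06). *Ahr*, a receptor for environmental ligands that keeps lymphocytes in tissue, was the 1 called between CD49a+ and MFL NK cells. It had 10.5 ± 5.98 CPM in MFL NK cells, 43.5 ± 26.8 in LM NK cells, 137 ± 41.1 in CD49a+ NK cells and 106 ± 4.14 in ILC1 (CD49a+ against MFL NK, adjusted p = 0.0014). *Tox*, a factor of early NK and ILC development, was higher in ILC1 (148 ± 13.6 CPM) than in CD49a+ NK cells (28.3 ± 5.97 CPM, adjusted p = 0.0025). *Irf8* had 1203 ± 84.2 CPM in MFL NK cells, 1138 ± 483 in CD49a+ NK cells and 128 ± 39.7 in ILC1. Between the LM populations, and between LM and MFL NK cells, edgeR called 0 of the 23.

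The genes whose profiles lay nearest to each factor were found by the root mean square difference of centered log2 CPM over the 12 libraries, among 9749 genes. For *Eomes*, *Qrfp* (0.61) and *Car5b* (0.66) were among the 3 nearest. For *Zeb2* it was *Itgam* (0.52), then the Ly49 pseudogenes *Klra13-ps* (0.55) and *Klra14-ps* (0.60). *Zfp683* was nearest to *Crybg2* (1.07), *Septin8* (1.21) and *Atp8a2* (1.41), and *Bcl11b* to *Dclk2* (0.89). *Tcf7* was nearest to *Kbtbd11* (0.38), *Sipa1l1* (0.40) and *Sidt1* (0.41), *Prdm1* to *Rap2a* (0.42) and *Ikzf2* to *Rpgrip1* (0.58). The factors with flat profiles had the closest neighbors, namely *Tbx21* with *Cic* (0.17), *Ikzf3* with *Kif3b* (0.18) and *Runx3* with *Hivep2* (0.17). Between the factors themselves, the closest pair was *Tbx21* and *Ikzf3* (0.39), and *Eomes* and *Zeb2* lay 1.15 apart.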

How the data were processed

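Bulk RNA of 12 sorted lymphocyte libraries was read, 3 per population. Per the labels and the study's methods, the authors prepared stranded total RNA libraries (SMARTer Pico), cleaned the reads with Trim Galore, quantified them on the M27 release of GENCODE (GRCm39) using Salmon (v1.5.0), and collapsed transcripts into genes through tximport (v1.28.0). What they deposited is an estimated count for each gene, unnormalized and already a whole number. The macrophage libraries of the series were not used here. Gene IDs were named from GENCODE vM39, which held 53700 of 54309 IDs, and positions are from there.

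The tools were edgeR (v4.0.16), DESeq2 (v1.42.0) and limma (v3.58.1) in R (v4.3.3), with matplotlib (v3.10.9) in Python (v3.11.15) for plots. After filterByExpr, libraries were scaled by TMM, and all 12 entered one quasi-likelihood fit without a block. P-values were Benjamini-Hochberg adjusted over 13594 genes, and an adjusted p under 0.1, the FDR the study used, was called. The SE is the log2 fold change divided by the square root of F and is approximate. Ratios within libraries used a pseudocount of 1 and two-sided exact permutation tests. The fit was tested on simulated counts. Replicates were separate libraries (chi-square per degree of freedom at least 25.1). With 8795721 to 14386834 counts per library, factors under 5 CPM rest on few counts.

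The members and gene lists were chosen with earlier results of these data known. From each list, up to 4 called genes per comparison and direction with the largest change and a mean of at least 5 CPM were named, and 3 nearest genes per factor were ranked. *Itga1* and *Itga2* were given for the gates. One gene that the rule names is not reported here. The T-box motif was searched without the leading A that had been planned. The alternatives were DESeq2 size factors, DESeq2, limma-voom with library quality weights, no filter, a replicate block, no mitochondrial, ribosomal RNA and small RNA genes, other pseudocounts (0.5 and 5), and each library left out.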

Additional observations from a re-analysis of the deposited data

Results flagged for a closer look

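A test of the difference itself flagged 2 of the 10 factors, for which the CD49a+ against CD49a- difference was not the same in LM and MFL. Of all genes, 0.625% were called in the positive and 0.405% in the negative direction. The CD49a+ cells of MFL were ILC1 without CD49b and those of LM were NK cells with it. The contrast thus holds the gate as well as the site. For *Eomes* the LM difference exceeded the MFL difference by 4.58 log2 units (-0.46 against -5.04), and the value lay between 4.19 and 5.54 over the fits that left out 1 library. For *Zeb2* the excess was 2.98 log2 units (-1.72 against -4.70), between 2.64 and 3.34 over the same fits. Both stayed past the threshold in each of these fits. Groups of 3 libraries were too small for a search for single outlying libraries.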

How the results depend on the processing

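The number of the 10 factors called was 4, 1, 1, 0, 5 and 2 for ILC1 against MFL NK cells, CD49a+ against LM NK cells, CD49a+ against MFL NK cells, LM against MFL NK cells, CD49a+ NK cells against ILC1 and the difference between sites. Another scaling (DESeq2 size factors) gave the same 6 numbers. Without the filter on low counts the 2nd and 3rd were 2 and 6 (0.91% and 1.69% of all genes called). They were 2 and 3 with DESeq2 (4.08% and 2.86%), and 0 and 3 with limma-voom (0 and 2.26%), which called 9 in the first (19.5%). In the first, in CD49a+ NK cells against ILC1 and between sites there were 6, 6 and 3 without the filter (2.72%, 3.52% and 1.2% of all genes). In the latter pair there were 7 and 2 with DESeq2 (7.75% and 2.68% of all genes), and 6 and 3 with limma-voom (6.88% and 1.32%). DESeq2 added *Prdm1*, *Ikzf3* and *Runx3* against ILC1 and gave no adjusted p for *Bcl11b*. Without mitochondrial, ribosomal RNA and small RNA genes the third was 2. Leaving out 1 library gave 0 to 2 in the second and 1 to 4 in the third. The cause of these shifts was not tested.

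Small differences reversed. *Eomes* in CD49a+ against MFL NK cells was -0.12 with limma-voom, and -0.21 to 0.21 when 1 library was left out. For *Ikzf3*, the difference between sites was 0.10 with limma-voom, 0.0030 with the replicate block and -0.10 to 0.13 with 1 library left out. The other ranges with 1 library left out that cross 0 were -0.075 to 0.26 for *Runx3* between sites, -0.25 to 0.023 for *Runx3* in CD49a+ against LM NK cells, -0.39 to 0.048 for *Tbx21* and -0.11 to 0.33 for *Prdm1* in LM against MFL NK cells, -0.64 to 0.0079 for *Ikzf2* in CD49a+ NK cells against ILC1, and -0.059 to 0.63 for the log2 *Ikzf2* to *Ikzf3* ratio in the same pair.

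The paper states that the pools were collected in 3 independent sortings, but no label ties a replicate number to a sort. The numbers were therefore not taken as pairs in the main fit. Deviations of same-numbered libraries correlated at -0.045 to 0.098, and those of libraries with other numbers at -0.108 to 0.084. As a hint from the data, 8 of 12 libraries correlated best with their own number, and in all 4 populations the hepatocyte marker sum was highest in replicate 1 and the erythroid sum in replicate 2. With the replicate block, the 6 numbers were 4, 1, 1, 0, 5 and 2 as without it. With 3 libraries per population and counts of 0 to 11 for *Zfp683* in most NK libraries, changes of low factors within NK cells were not detectable at this depth unless large.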
